A study of Homo sapiens with 18 samples.

Results

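Antisense noncoding RNAs were described here as the 161 rows of the count table whose gene symbol ends in -AS and a digit and whose median over the 6 untreated libraries was 20 raw counts or more. The table holds 43735 genes, of which 1158 have such a symbol, and 344 of these had 0 counts in all libraries. The libraries came from MM1S, a human multiple myeloma line, and MM1R, its glucocorticoid-resistant counterpart. Each line had 3 untreated libraries, 3 from a 3 h treatment with RSL3 at 5 µM, and 3 in which Fer-1 at 2 µM was added 2 h ahead of the same RSL3 treatment. RSL3 triggers ferroptosis by inhibition of the lipid peroxidase GPX4, which Fer-1 (ferrostatin-1), a lipid radical trap, counteracts. The libraries of a line come from passages 4, 6 and 7 of MM1R and passages 16, 22 and 23 of MM1S, each passage with a library of every treatment, so differences between treatments can be read within a passage. The groups are passages of established lines grown in medium with serum, with no group that received Fer-1 alone, and the p-values measure the spread between these libraries.

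Antisense genes lie on the opposite DNA strand of a gene that is often protein-coding, and take its symbol. Some overlap the exons or introns of the sense gene, while others start beside its promoter and run away from it, as RNA polymerase II commonly starts transcription in both directions at active promoters. Many such RNAs are spliced and polyadenylated, many are kept at low levels by the nuclear exosome, and the function of most is unknown. A few, such as OIP5-AS1, ZEB1-AS1 and AFAP1-AS1, have been studied in cancer cells.

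Total counts per library ranged from 17635438 to 19368343, and the antisense RNAs together held 0.101% to 0.138% of them. The lowest share was that of MM1S RSL3 replicate 1 (passage 16), which also had the lowest TMM scaling factor, 0.864. The MM1R library labelled Fer-1 + RSL3 replicate 2 (passage 6) went against its label. Over 5 genes whose lowest MM1S library was at least 8-fold above the highest of the other MM1R libraries, it lay 51.6% of the way from the MM1R to the MM1S mean, against -0.945% to 1.52% for the other 17 libraries by the same measure. The main results with Fer-1 are therefore given with and without it. Plasma cell markers were high in all 18 libraries (SDC1 371 to 925 CPM, that is, TMM-scaled counts relative to library size, IRF4 573 to 1220 CPM), while the B cell marker CD22 was at 0 in 17 of them. Whether the counting used strand is not stated in the sources used here. Where an antisense RNA shares exonic bases with its sense gene or with another gene on the opposite strand, their reads therefore cannot be told apart.

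In an annotation of hg19, 160 of the 161 genes were found (AFF1-AS1 was not), 158 of them as lncRNA genes, on 23 chromosomes. A sense gene with a position was found for 158. Of these, 134 overlap it on the opposite strand, 21 are divergent with starts within 1000 bases and no overlap, and 3 lie on the opposite strand with no overlap. Counting all annotated start sites, 105 of the 158 start within 1000 bases of a start of the sense gene. Of the 158, 115 share at least 1 exonic base with the sense gene and 43 share none, with a median shared part of 3.60% of the antisense exons and 19 genes over 20%. PABPC4-AS1, opposite the gene of a cytoplasmic poly(A)-binding protein, shares the most (79.4%).

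The antisense RNAs were scarce. Their median count in untreated cells was 52.5, against 385.5 over the 14281 genes that passed the filter on low counts and were tested. All 161 passed it, 79 had a median of 20 to 50 counts, and 8 had over 500. Per kilobase of annotated exon, the sense gene was higher in 117 of 145 pairs, and the antisense RNA reached a median of 12.1% of the sense level. AFAP1-AS1, opposite the gene of an actin-filament-associated protein, was an exception, at 1514% of AFAP1 with 42.2% of its exonic bases shared, as was THAP9-AS1, at 339% of THAP9. The antisense RNAs with the most counts in untreated cells were OIP5-AS1, at 158.6 ± 10.6 CPM in MM1R and 160.3 ± 16.7 CPM in MM1S, FGD5-AS1 (88.1 ± 5.27 and 105.9 ± 1.20), IFNG-AS1 (77.1 ± 8.85 and 82.2 ± 11.2), FEZF1-AS1 (56.2 ± 1.71 and 53.5 ± 5.84), MRPL20-AS1 (42.03 ± 2.13 and 37.8 ± 2.31) and TRG-AS1 (49.8 ± 2.65 and 24.7 ± 5.93), all mean ± SD over 3 libraries. These CPM are not corrected for length. Per kilobase of exon the order was different, with C2CD4D-AS1 (21.08 CPM per kilobase over the untreated libraries), IFNG-AS1 (17.55), FGD5-AS1 (16.05), MRPL20-AS1 (15.77) and FEZF1-AS1 (12.26) at the top and OIP5-AS1 (7.13) in place 10. Just inside the limit were INTS6-AS1 and FGF14-AS2 with a median of 20.5 counts, and just outside were TFAP2A-AS2, HMGN3-AS1 and HM13-AS1 with 19.5. CDKN2B-AS1 followed with 19, from 38, 35 and 39 counts in MM1R and 3, 0 and 0 in MM1S.

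The first comparison asked which antisense RNAs changed with RSL3. UBA6-AS1, THAP9-AS1, H1FX-AS1, WAC-AS1 and PCBP1-AS1 rose when averaged over both lines, and MCM3AP-AS1, COX10-AS1, SLC25A25-AS1, RUSC1-AS1 and AFAP1-AS1 fell, with edgeR's quasi-likelihood test and Benjamini-Hochberg adjustment (FDR) under 0.05. The other 151 did not pass. Most of these changes were under 2-fold, and H1FX-AS1 alone also passed the fold limit used for DEGs, a log2 fold change over 1 in size. UBA6-AS1 and MCM3AP-AS1 were the only antisense RNAs with an FDR under 0.05 in each line by itself.

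The start regions of 4 of these genes are shown as examples. Their RNAs changed in the same direction in all 6 passages, and 3 of the 4 genes start next to the sense gene. WAC-AS1, PCBP1-AS1 and SLC25A25-AS1 also changed in 1 direction in all 6 passages, and matches in their regions are given below. Each region runs from 250 bases before to 50 bases after the start in the RefSeq promoter table (GRCh38.p14), 5′ to 3′ on the strand of the antisense gene. Capitals mark matches, on either strand, to 9 motifs searched in all of them.
UBA6-AS1 (chr4:67701028-67701327, + strand, listed as UBA6-DT): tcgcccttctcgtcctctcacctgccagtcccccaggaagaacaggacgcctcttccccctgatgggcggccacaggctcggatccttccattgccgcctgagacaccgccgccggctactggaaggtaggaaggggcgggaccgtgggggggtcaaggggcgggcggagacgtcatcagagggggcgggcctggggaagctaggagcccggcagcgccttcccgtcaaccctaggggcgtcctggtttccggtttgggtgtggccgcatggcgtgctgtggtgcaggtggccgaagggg
THAP9-AS1 (chr4:82900867-82901166, - strand): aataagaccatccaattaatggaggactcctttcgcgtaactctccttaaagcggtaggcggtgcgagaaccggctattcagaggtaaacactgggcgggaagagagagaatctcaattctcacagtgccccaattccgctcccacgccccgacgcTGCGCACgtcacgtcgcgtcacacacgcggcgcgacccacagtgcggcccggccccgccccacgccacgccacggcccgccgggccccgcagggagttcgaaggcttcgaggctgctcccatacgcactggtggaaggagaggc
COX10-AS1 (chr17:14069409-14069708, - strand, listed as COX10-DT): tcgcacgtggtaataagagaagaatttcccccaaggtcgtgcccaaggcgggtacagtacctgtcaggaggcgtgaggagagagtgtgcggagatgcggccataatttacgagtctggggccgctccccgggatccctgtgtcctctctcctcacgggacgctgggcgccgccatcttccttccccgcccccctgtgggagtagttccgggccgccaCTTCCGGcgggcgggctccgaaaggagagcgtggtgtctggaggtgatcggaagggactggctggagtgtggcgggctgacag
MCM3AP-AS1 (chr21:46228981-46229280, + strand): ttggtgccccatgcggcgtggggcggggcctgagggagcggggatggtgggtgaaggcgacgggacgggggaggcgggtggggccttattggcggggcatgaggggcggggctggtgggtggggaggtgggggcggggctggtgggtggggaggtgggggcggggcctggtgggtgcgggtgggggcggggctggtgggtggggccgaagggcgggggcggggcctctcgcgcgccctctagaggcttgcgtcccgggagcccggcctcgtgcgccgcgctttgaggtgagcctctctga
The windows of UBA6-AS1 and COX10-AS1 also hold the start of the sense gene, and the start of THAP9-AS1 in the table lies 181 bases from that of THAP9, whereas MCM3AP starts 56380 bases away from MCM3AP-AS1. Their GC content was 69.0%, 63.3%, 64.3% and 77.3% in the order shown, against a median of 58.7% over 35116 promoter windows of the table. The motifs were the heat shock element GAANNTTC (in 6.77% of all windows), the antioxidant response element TGACNNNGC (13.3%), the ATF4 site TGATGNAA (3.62%), the AP-1 site TGANTCA (7.71%), the cAMP response element TGACGTCA (1.85%), the metal response element as TGCACNC (12.1%) or TGCGCNC (in 7012 windows), the ETS site CCGGAAG (10.3%) and the NRF1 palindrome (1.24%). No motif overlapped another in the matches shown. THAP9-AS1 held TGCGCAC 94 bases before the start, COX10-AS1 held CTTCCGG, the reverse complement of the ETS site, 33 bases before it, and no letters of these motifs were found in the other two windows. Of the 10 genes that changed, 8 were in the table, and H1FX-AS1 and AFAP1-AS1 were not. Among windows not shown, that of SLC25A25-AS1 held TGCACCC, a metal response element, at -223, -160, -105, -81 and -34 from its start. This window is largely made of similar short repeats, of which these matches are part, and its start lies 20227 bases from that of SLC25A25. The WAC-AS1 window held both forms of the metal response element. Each of the 5 windows of PCBP1-AS1 held the ETS site, TGCGCGC or the antioxidant match TGACCAGGC. The windows of RUSC1-AS1 held no match.

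UBA6-AS1 (hg19 chromosome 4, 68566927 to 68946670, + strand) starts 54 bases from UBA6, the gene of an E1 enzyme that activates ubiquitin and FAT10, and shares no exonic base with it. UBA6-AS1 shares 14.9% of its exonic bases with other annotated genes on either strand. In MM1R it read 10.2, 10.1 and 9.04 CPM at passages 4, 6 and 7 in untreated cells, and 20.2, 15.8 and 14.6 CPM with RSL3. In MM1S it read 10.1, 10.6 and 10.3 CPM at passages 16, 22 and 23 without treatment, and 15.2, 18.2 and 17.0 CPM with RSL3. Every RSL3 library was above every untreated library, in each of the 2 lines and across them. The log2 fold change was 0.78 (SE 0.14, FDR = 0.00651) in MM1R, 0.70 (SE 0.13, FDR = 0.0111) in MM1S and 0.74 (SE 0.10, FDR = 0.000153) averaged, by edgeR's quasi-likelihood test. The 6 passages were close to each other, with differences of 0.58 to 0.97 in log2 CPM. UBA6 itself went from 69.8 ± 9.50 to 69.8 ± 6.32 CPM in MM1R and from 94.3 ± 12.9 to 84.9 ± 4.96 CPM in MM1S (averaged log2 fold change -0.08, FDR = 0.651). The call of UBA6-AS1 averaged over lines held with any 1 library left out, and that in MM1S was lost without MM1S untreated replicate 1 (FDR = 0.0557).

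THAP9-AS1 (chromosome 4, 83814162 to 83822113, - strand) lies across the start of THAP9, the gene of a DNA transposase related to the P element, with 4.5% of the antisense exonic bases shared. Counting all annotated genes on either strand, THAP9-AS1 shares 15.5%. It read 23.5, 22.99 and 26.1 CPM in untreated MM1R and 39.3, 29.9 and 42.9 CPM with RSL3, and 20.7, 25.6 and 27.5 CPM in untreated MM1S and 55.5, 37.5 and 34.0 CPM with RSL3. No RSL3 library overlapped the untreated ones of its line. The log2 fold change was 0.63 (FDR = 0.0671) in MM1R, 0.78 (FDR = 0.0256) in MM1S and 0.71 (SE 0.13, FDR = 0.00179) averaged. In MM1S it was 0.54 with MM1S RSL3 replicate 1 left out, and the call in that line did not hold without this or any untreated MM1S library (FDR up to 0.137). THAP9 rose by a like amount, from 7.18 ± 0.15 to 12.1 ± 2.35 CPM in MM1R and from 6.999 ± 0.583 to 11.2 ± 1.47 CPM in MM1S (averaged log2 fold change 0.72, FDR = 0.00044). Of the 5 antisense RNAs that rose, THAP9-AS1 and H1FX-AS1 were those whose sense gene rose too.

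H1FX-AS1 (annotated as H1-10-AS1, chromosome 3, 129034235 to 129045068, + strand) lies opposite H1FX, the gene of a linker histone. In MM1R it read 10.9, 5.56 and 5.68 CPM without treatment and 20.1, 6.45 and 13.3 CPM with RSL3. In MM1S the values were 6.01, 6.48 and 5.62 CPM and 25.3, 10.4 and 8.11 CPM. MM1S RSL3 replicate 1 was the highest library, and the MM1R groups overlapped. The averaged log2 fold change was 1.06 (SE 0.31, FDR = 0.0288). It was 0.74 without MM1S RSL3 replicate 1, 0.98 (FDR = 0.0033) with the passage as a block, and the call was lost in 7 of the 18 fits that left out 1 library, those without MM1S RSL3 replicate 1, MM1R RSL3 replicate 1, MM1R untreated replicates 2 or 3, or any untreated MM1S library (FDR up to 0.0931). H1FX had the same pattern, with 412, 604 and 416 CPM in untreated MM1S and 1840, 893 and 555 CPM with RSL3 (averaged over lines 1.13, FDR = 0.0136). The pair shares 10.1% of the antisense exonic bases, and per kilobase H1FX-AS1 was at 0.690% of H1FX.

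The other rises were small. WAC-AS1, beside the gene of an adaptor for histone H2B ubiquitination, went from 30.7 ± 0.98 to 37.2 ± 2.16 CPM in MM1R and from 29.1 ± 2.09 to 32.4 ± 1.12 CPM in MM1S (averaged log2 fold change 0.22, SE 0.07, FDR = 0.0371), with RSL3 libraries clear of untreated ones in both lines. PCBP1-AS1, opposite the gene of a poly(rC)-binding protein that also carries iron, went from 5.79 ± 0.48 to 7.23 ± 0.47 CPM and from 4.29 ± 0.57 to 5.55 ± 0.29 CPM (0.35, SE 0.11, FDR = 0.0487). The call of WAC-AS1 held in 10 and that of PCBP1-AS1 in 3 of the 18 fits without 1 library. WAC (-0.06) and PCBP1 (-0.01) showed averaged log2 fold changes near 0. The next largest rises did not pass, at 0.54 for THAP7-AS1 (FDR = 0.123), 0.53 for AFF1-AS1 (FDR = 0.0596) and 0.49 for FGF14-AS2 (FDR = 0.153).

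MCM3AP-AS1 (chromosome 21, 47649110 to 47679304, + strand) lies within and opposite MCM3AP, the gene of the mRNA export factor GANP, and shares 17.5% of its exonic bases with it. In MM1R it read 4.99, 5.28 and 3.82 CPM without treatment and 2.80, 1.73 and 2.56 CPM with RSL3. In MM1S it read 6.79, 4.75 and 6.47 CPM and 2.56, 3.57 and 3.25 CPM. With RSL3 it was thus at 50.3% of the untreated level in MM1R and 52.3% in MM1S by the fitted fold changes, with no overlap of the libraries. The log2 fold change was -0.99 (SE 0.22, FDR = 0.0226) in MM1R, -0.94 (SE 0.22, FDR = 0.025) in MM1S and -0.96 (SE 0.15, FDR = 0.000728) averaged. The averaged call held with any 1 library left out, and the calls by line were lost in 4 fits for MM1R (without untreated replicate 1 or 2 or RSL3 replicate 2 or 3 of that line) and 3 for MM1S (without RSL3 replicate 1 or untreated replicate 1 or 3). MCM3AP was at 120 ± 10.2 and 103 ± 13.2 CPM in MM1R and 152 ± 0.76 and 119 ± 24.6 CPM in MM1S (averaged -0.29, FDR = 0.0523), a smaller difference that did not pass.

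COX10-AS1 (chromosome 17, 13658891 to 13972812, - strand) starts beside COX10, the gene of the enzyme that makes heme O for cytochrome c oxidase. It read 5.72, 5.28 and 5.16 CPM in untreated MM1R and 3.87, 3.41 and 3.76 CPM with RSL3, and 5.59, 3.92 and 4.47 CPM in untreated MM1S and 2.96, 2.50 and 3.84 CPM with RSL3. The groups did not overlap in either line, with an averaged log2 fold change of -0.57 (SE 0.15, FDR = 0.0181) that lost its call without MM1S untreated replicate 1. COX10 itself had -0.04 (FDR = 0.843).

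SLC25A25-AS1 lies opposite the gene of a mitochondrial ATP-Mg/phosphate carrier and read 12.5, 10.1 and 8.63 CPM in untreated MM1R against 6.78, 5.69 and 5.81 CPM with RSL3, and 10.4, 8.46 and 7.28 CPM against 7.62, 6.66 and 7.20 CPM in MM1S. The fall was -0.77 (SE 0.20, FDR = 0.0437) in MM1R, -0.28 (SE 0.20, FDR = 0.47) in MM1S and -0.53 (SE 0.14, FDR = 0.0189) averaged, and the averaged call was lost without MM1R untreated replicate 1 or MM1S untreated replicate 1. The call in MM1R was lost in 10 of the 18 fits that left out 1 library, among them each of those without an untreated or RSL3 library of MM1R (FDR up to 0.159). Its sense gene SLC25A25 went the other way, from 45.0 ± 8.14 to 61.5 ± 9.13 CPM in MM1R and from 45.4 ± 4.79 to 65.7 ± 14.4 CPM in MM1S (averaged 0.49, FDR = 0.0131).

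AFAP1-AS1 went from 26.6 ± 3.04 to 20.1 ± 1.70 CPM in MM1R and from 26.1 ± 1.01 to 21.0 ± 2.43 CPM in MM1S (averaged log2 fold change -0.36, SE 0.10, FDR = 0.0227), again without overlap. Its call was lost without any of MM1R untreated replicate 1, MM1R RSL3 replicate 2, MM1S RSL3 replicate 1 or MM1S untreated replicate 2. RUSC1-AS1, which went from 8.97 ± 2.23 to 5.23 ± 1.13 CPM in MM1R and from 9.70 ± 1.15 to 7.91 ± 1.995 CPM in MM1S (-0.54, SE 0.17, FDR = 0.0435), kept its call in only 7 of the 18 fits. RUSC1-AS1 shares 11.4% of its exonic bases with RUSC1, and 31.1% with FDPS and RUSC1 together, both on the opposite strand. Among larger falls that did not pass were NPSR1-AS1 (-1.02, SE 0.39, FDR = 0.0888), ZRANB2-AS1 (-0.63, FDR = 0.22) and LYRM4-AS1 (-0.54, FDR = 0.158).

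**Figure D1:**
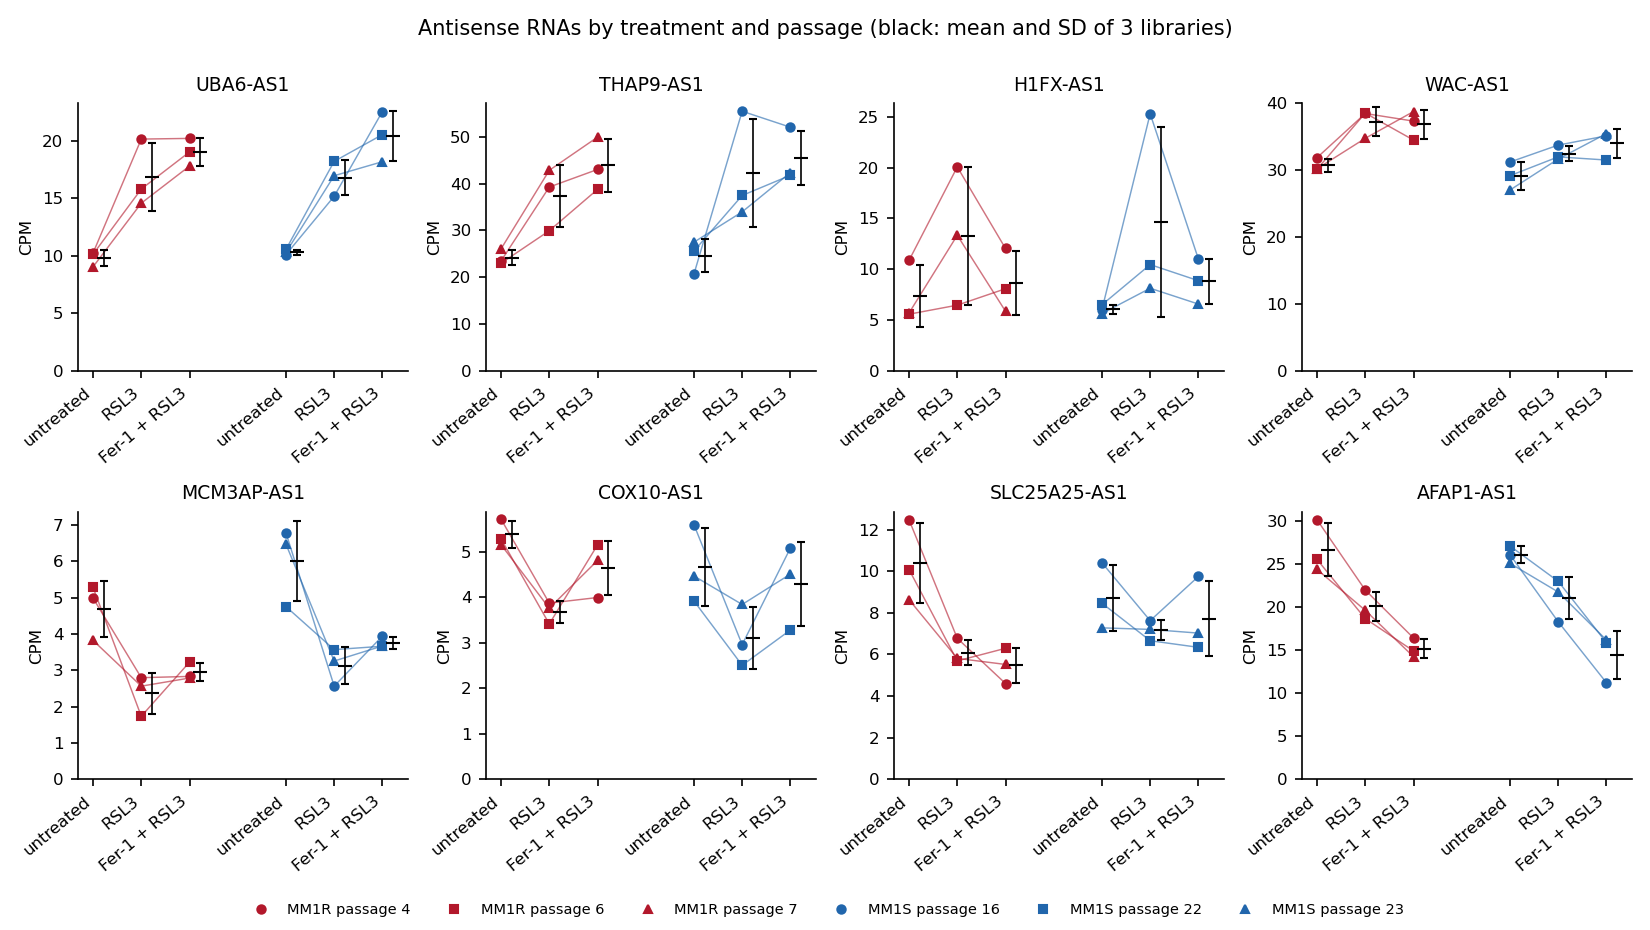
CPM (linear axes from 0) of 8 antisense RNAs in the 18 libraries, with a line joining the 3 treatments of a passage, MM1R in red, MM1S in blue, and black bars for the mean and SD of 3 libraries. UBA6-AS1, THAP9-AS1, H1FX-AS1 and WAC-AS1 are higher with RSL3, and MCM3AP-AS1, COX10-AS1, SLC25A25-AS1 and AFAP1-AS1 lower, in all 6 passages. The H1FX-AS1 panel is led by MM1S RSL3 at passage 16, at 25.3 CPM.

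**Figure D2:**
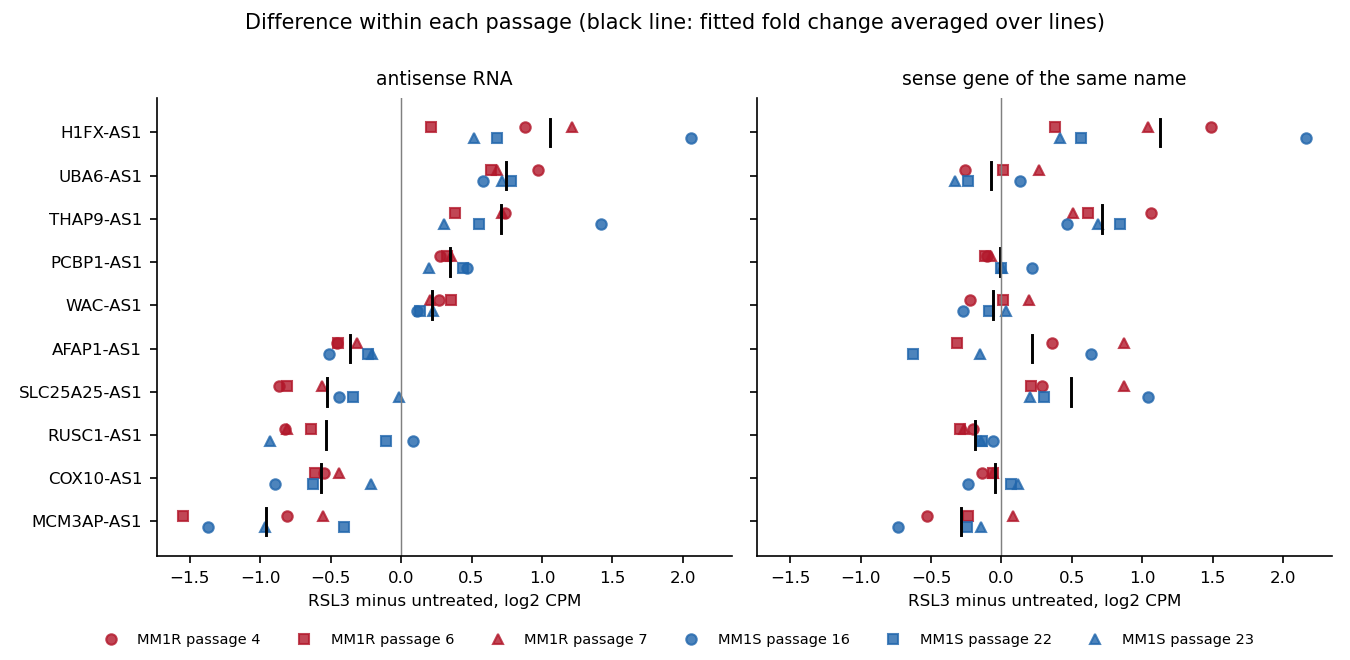
Difference of RSL3 minus untreated in log2 CPM (prior count 2) within each passage for the 10 antisense RNAs with an FDR under 0.05 (left) and for their sense genes in the same order (right), with black lines for the fitted fold change averaged over lines. UBA6-AS1 lies between 0.58 and 0.97 in all 6 passages while UBA6 straddles 0, and THAP9 and H1FX follow their antisense RNAs.

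Seen over all 161, antisense RNAs were called at lower shares than all genes tested. DEGs numbered 0 in MM1R (1.2% of all genes tested), 0 in MM1S (1.61%) and 1 averaged over lines (3.24%). An FDR under 0.05 without the fold limit was reached by 3 in MM1R (3.36% of all genes tested), 3 in MM1S (3.67%) and 10 averaged (15.5%), that is, 5 higher (8.7%) and 5 lower (6.81%). By an unadjusted p under 0.05 there were 11 in MM1R (6.83% of the antisense RNAs, 18.5% of all genes tested), 16 in MM1S (9.94% and 19.5%) and 26 averaged (16.1% and 30.2%). With the passage as a block, which removes differences between passages, an FDR under 0.05 was reached by 9, 8 and 22 antisense RNAs (13.1%, 13.3% and 30.4% of all genes tested), and DEGs numbered 2 in MM1S and 0 averaged. Their errors were wider, with a median SE of the averaged log2 fold change of 0.195 against 0.137 for all genes. The direction was balanced: 78 of 161 had an averaged fold change above 0 and the median was -0.00779, against -0.000133 for all genes tested. The untreated libraries that chose the members are also the reference of this comparison, so the balance and the shares hold for this limit only. The 133 other antisense symbols that passed the filter, all with a lower untreated median, were higher with RSL3 for 92, with a median of 0.285, and 9 of them were higher and 1 lower at an FDR under 0.05. A gene scarce in untreated cells can pass that filter through its treated libraries alone.

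Paired by passage, 24 antisense RNAs moved with RSL3 in the same direction in all 6 passages, which is 14.9% of them against 28.6% of all genes tested. The 11 that were higher were UBA6-AS1, THAP9-AS1, H1FX-AS1, WAC-AS1, PCBP1-AS1, WARS2-AS1, TMEM44-AS1, EPB41L4A-AS1, FGF14-AS2, RAB11B-AS1 and PRR34-AS1. The 13 that were lower included MCM3AP-AS1, COX10-AS1, SLC25A25-AS1, AFAP1-AS1, OIP5-AS1, MNX1-AS1, NPSR1-AS1 and EP300-AS1. Libraries of the 2 treatments did not overlap in both lines for 5 higher antisense RNAs (background 6.13%) and 3 lower ones (background 5.52%). OIP5-AS1, also known as cyrano, had the most counts of all and read 165, 164 and 146 CPM in untreated MM1R and 130, 151 and 121 CPM with RSL3, and 142, 163 and 175 CPM in untreated MM1S and 85.6, 138 and 134 CPM with RSL3. Its averaged log2 fold change of -0.33 (SE 0.11) had an FDR of 0.0575 by edgeR's quasi-likelihood test. It passed with the passage as a block (FDR = 0.00189) and with DESeq2, and so did MNX1-AS1 (0.00913 with the block). NPSR1-AS1 (0.00609), AFF1-AS1 (0.0257) and THAP7-AS1 (0.046) also had an FDR under 0.05 with the block, having not passed without it. FGD5-AS1 (-0.03, FDR = 0.833) did not pass either, and ZEB1-AS1 had 0.32 (FDR = 0.27) where ZEB1, a transcription factor of epithelial-mesenchymal transition, rose by 0.91 (FDR = 0.0279).

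**Figure D3:**
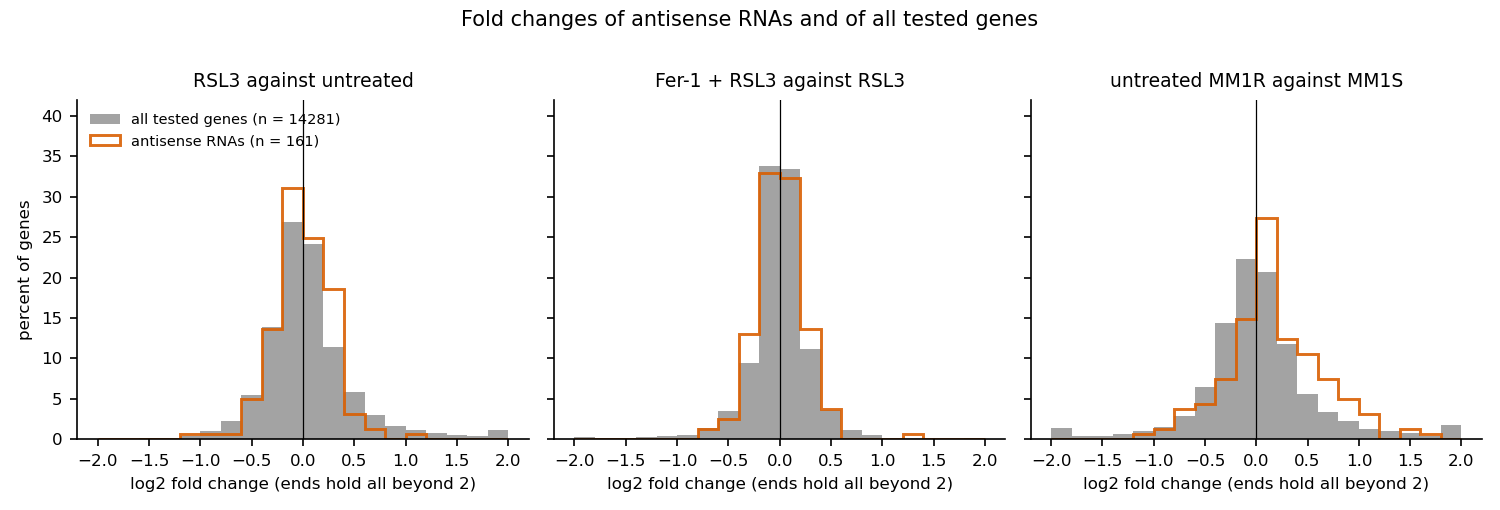
Percent of genes in bins of 0.2 of the fitted log2 fold change for the 161 antisense RNAs (orange outline) and for all 14281 genes tested (grey), for RSL3 against untreated and Fer-1 + RSL3 against RSL3, both averaged over lines, and for untreated MM1R against untreated MM1S. Both treatment panels are centred near 0 for the antisense RNAs, with medians of -0.00779 and 0.000651, and the panel of the lines is shifted to the right, with a median of 0.121.

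The second question was whether the antisense RNAs moved with the sense gene of the same name. A tested sense gene was present for 146 antisense RNAs, 145 genes in all. Of these 145 sense genes, 16 rose and 7 fell with RSL3 at an FDR under 0.05 averaged over lines (8.7% and 6.81% of all genes tested), and their median log2 fold change was -0.0179 (all genes tested -0.000133). Antisense and sense fold changes had the same sign in 76 of 146 pairs, with a Pearson r of 0.212 and a Spearman rho of 0.0985 across pairs. These are across genes from the same libraries, which are not independent replicates. The median difference of antisense minus sense was -0.0114. For the 100 pairs that start within 1000 bases of each other r was 0.321 (0.11 in MM1R and 0.435 in MM1S). For the 45 that start further apart it was -0.0514 (-0.118 and 0.0358). The averaged Spearman rho was 0.183 for the nearer and -0.0548 for the further pairs. This order did not hold for Fer-1 and RSL3 against untreated, where r was 0.141 and 0.327. Within single passages r ranged from 0.0317 to 0.315. For the 37 pairs without a shared exonic base it was 0.183, and for the 19 with over 20% shared it was -0.105.

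Several sense genes changed while the antisense RNA did not pass the test. ZNF674, a zinc finger gene, went from 3.13 ± 0.59 to 7.32 ± 1.86 CPM in MM1R and from 4.14 ± 0.92 to 8.36 ± 1.43 CPM in MM1S and was a DEG in both lines (log2 fold change 1.22, FDR = 0.00773 and 1.01, FDR = 0.0177). ZNF674-AS1 read 5.47 ± 0.52 and 4.18 ± 0.48 CPM in MM1R and 5.68 ± 0.94 and 5.10 ± 0.71 CPM in MM1S (averaged -0.27, FDR = 0.248). CBR3, the gene of a carbonyl reductase, was also a DEG in both lines (1.21, FDR = 0.0247 and 1.22, FDR = 0.0127). CBR3-AS1 read 1.403, 1.25 and 2.03 CPM in untreated MM1R and 1.72, 0.92 and 1.25 CPM with RSL3, and 1.92, 2.25 and 2.61 CPM in untreated MM1S and 3.35, 3.996 and 3.68 CPM with RSL3. In MM1S all its RSL3 libraries were thus above the untreated ones, and in MM1R the groups overlapped, with log2 fold changes of 0.70 (FDR = 0.123) and -0.26 (FDR = 0.674). RORA, a nuclear receptor gene, rose (averaged 1.15, FDR = 0.00761), while RORA-AS1 had -0.01 (FDR = 0.988). MNX1 (-0.93, FDR = 0.00465), a homeobox gene, SNAI3 (-0.68, FDR = 0.00904), a repressor of the Snail family, and FAM222A (-0.68, FDR = 0.0245) fell. Their antisense RNAs had -0.51 (MNX1-AS1, FDR = 0.0521), -0.02 (SNAI3-AS1, FDR = 0.974) and 0.06 (FAM222A-AS1, FDR = 0.907). MNX1-AS1 thus moved in the direction of MNX1, and it passed edgeR's quasi-likelihood test with the passage as a block (FDR = 0.00913). The antisense RNAs furthest above their sense gene were UBA6-AS1, FAM222A-AS1, SNAI3-AS1 and NOP14-AS1 (0.44, FDR = 0.131, against -0.21 for NOP14), and those furthest below were ZNF674-AS1, RORA-AS1, SLC25A25-AS1 and CBR3-AS1. These differences within a pair were not themselves tested.

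**Figure D4:**
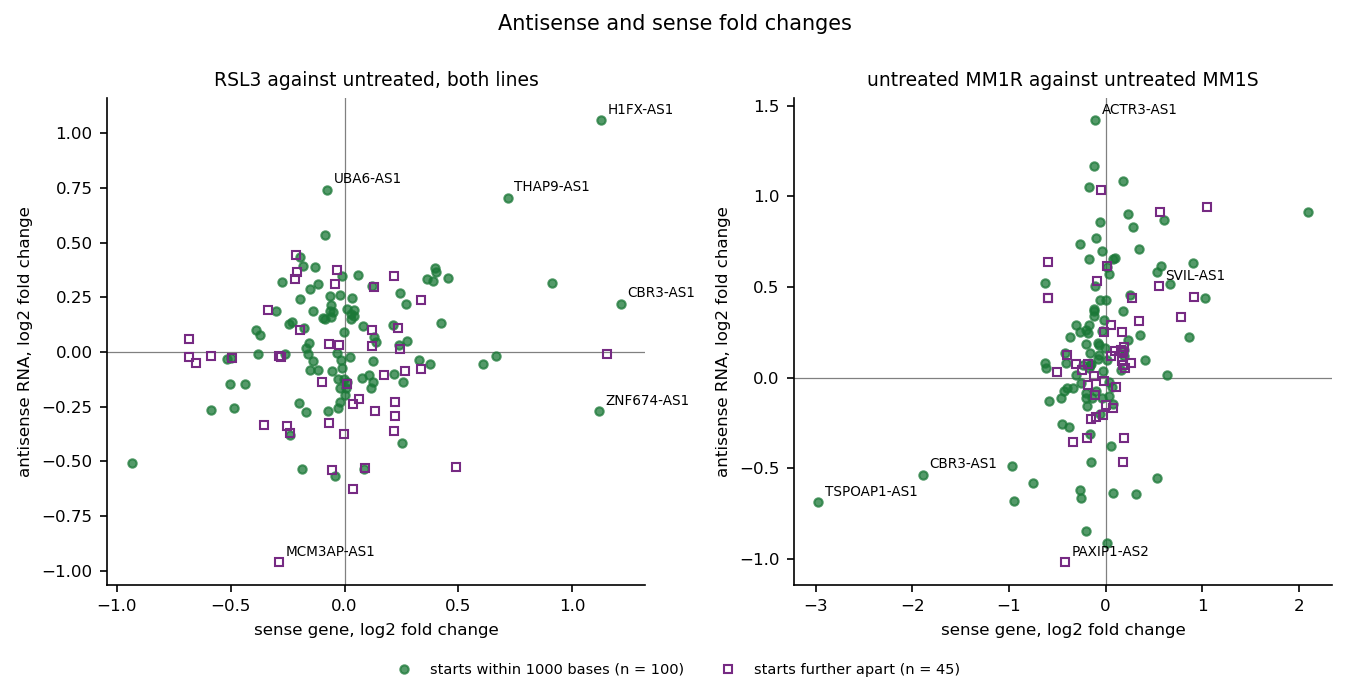
Fitted log2 fold change of each antisense RNA (vertical axis) against that of its sense gene (horizontal axis), with green circles for 100 pairs that start within 1000 bases of each other and open purple squares for 45 that start further apart; AFF1-AS1, without a position, is not drawn. For RSL3 (left, averaged over lines) most points lie in a cloud around 0, with THAP9-AS1 and H1FX-AS1 high for both RNAs, UBA6-AS1 high for the antisense RNA and ZNF674 and CBR3 for the sense gene; for the untreated lines (right) r was 0.397.

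Whether Fer-1 altered these RNAs was examined against RSL3 alone. With edgeR's quasi-likelihood test, 0 of the 161 had an FDR under 0.05 in MM1R (0.0% of all genes tested), in MM1S (0.0%) or averaged over lines (0.119%). At an unadjusted p under 0.05 there were 7, 7 and 12 (4.35%, 4.35% and 7.45% of the antisense RNAs, against 6.17%, 5.75% and 12.8% of all genes tested), and 4, 5 and 8 without the MM1R library labelled Fer-1 + RSL3 replicate 2. By FDR, 0 passed without that library in MM1R, in MM1S or averaged (0%, 0% and 0.028% of all genes tested). Both DESeq2 and the fit with the passage as a block gave 3 with an FDR under 0.05 in the averaged comparison: AFAP1-AS1, FEZF1-AS1 and PABPC4-AS1. With the block, 2.37% of all genes tested passed. With the block and without that library, AFAP1-AS1 alone passed, against 0.651% of all genes tested. AFAP1-AS1 read 21.9, 18.6 and 19.6 CPM with RSL3 and 16.4, 14.9 and 14.2 CPM with Fer-1 and RSL3 in MM1R, and 18.3, 22.96 and 21.7 CPM and 11.2, 15.8 and 16.1 CPM in MM1S. No library overlapped between these treatments in either line, and the averaged log2 fold change was -0.47 (FDR = 0.0655 by edgeR's quasi-likelihood test, and 0.0148 with the block). FEZF1-AS1 read 55.1 ± 4.48 and 44.7 ± 1.85 CPM in MM1R and 56.1 ± 7.39 and 43.7 ± 2.00 CPM in MM1S (-0.33, FDR = 0.088, and 0.0267 with the block). PABPC4-AS1 read 0.91, 0.76 and 0.51 CPM and 2.33, 1.82 and 1.91 CPM in MM1R, and 0.53, 1.97 and 1.71 CPM and 3.42, 2.62 and 2.73 CPM in MM1S (1.25, FDR = 0.0937, and 0.033 with the block). It was the only antisense RNA higher in Fer-1 libraries without overlap in both lines (background 1.42%), and AFAP1-AS1 and FEZF1-AS1 were the only lower ones (0.917%). PABPC4, on whose exons most bases of PABPC4-AS1 lie, had -0.06 in the same comparison (FDR = 0.766). Without the MM1R library labelled Fer-1 + RSL3 replicate 2, the averaged FDR of these 3 was 0.163 (AFAP1-AS1), 0.194 (FEZF1-AS1) and 0.176 (PABPC4-AS1), at nearly unchanged log2 fold changes of -0.47, -0.32 and 1.28. Paired by passage, 7 antisense RNAs were higher and 4 lower with Fer-1 in all 6 passages (6.83% in all, against 14.6% of all genes tested), with UBA6-AS1, COX10-AS1 and MCM3AP-AS1 among the higher and AFAP1-AS1, FEZF1-AS1 and ZEB1-AS1 among the lower. Over the 5 passages without that library 10 were higher and 7 lower (10.6%, against 21.2% of all genes tested).

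In cells given Fer-1 and RSL3, UBA6-AS1, THAP9-AS1, WAC-AS1, MCM3AP-AS1, SLC25A25-AS1 and AFAP1-AS1 also differed from untreated cells, in the same direction as with RSL3 alone. This comparison shares its untreated libraries with the one above. UBA6-AS1 was at 20.2, 19.0 and 17.8 CPM in MM1R and 22.6, 20.6 and 18.2 CPM in MM1S, with a log2 fold change against untreated of 0.97 (SE 0.10, FDR = 7.94e-06) averaged over lines. THAP9-AS1 was at 43.96 ± 5.65 and 45.4 ± 5.78 CPM (0.87, FDR = 0.000231), AFAP1-AS1 at 15.2 ± 1.11 and 14.4 ± 2.77 CPM (-0.83, FDR = 4.41e-05) and MCM3AP-AS1 at 2.95 ± 0.24 and 3.76 ± 0.16 CPM (-0.67, FDR = 0.00526). UBA6-AS1, THAP9-AS1 and AFAP1-AS1 passed in each line, and SLC25A25-AS1 in MM1R. H1FX-AS1 was at 12.0, 8.06 and 5.85 CPM in MM1R and 10.99, 8.86 and 6.55 CPM in MM1S. These libraries overlapped the untreated ones in MM1R and lay above them in MM1S (averaged log2 fold change 0.39, FDR = 0.418). COX10-AS1 was at 4.65 ± 0.59 and 4.29 ± 0.92 CPM (-0.17, FDR = 0.475). PCBP1-AS1 (0.26, FDR = 0.115) and RUSC1-AS1 (-0.46, FDR = 0.0704) did not pass either. By edgeR's quasi-likelihood test against RSL3 alone, H1FX-AS1 (-0.67, FDR = 0.371) and COX10-AS1 (0.40, FDR = 0.285) did not pass. Neither did PCBP1-AS1 (-0.08, FDR = 0.821) or RUSC1-AS1 (0.08, FDR = 0.893). An FDR under 0.05 was reached by 4 antisense RNAs in MM1R (9.22% of all genes tested), 3 in MM1S (4.61%) and 15 averaged (19.0%), 5 of them higher (10.5%) and 10 lower (8.47%). With the passage as a block these were 12, 11 and 25 (22.2%, 14.7% and 33.3% of all genes tested), and 5, 12 and 22 without the MM1R library labelled Fer-1 + RSL3 replicate 2 (12.7%, 14.7% and 28.8%). The others of the 15 were PABPC4-AS1 (0.98), THUMPD3-AS1 (0.40) and WAC-AS1 (0.24), which were higher, and SLC25A25-AS1 (-0.55), LAMP5-AS1 (-0.58), MNX1-AS1 (-0.53), ZNF674-AS1 (-0.50), NDUFB2-AS1 (-0.48), OIP5-AS1 (-0.38), FEZF1-AS1 (-0.31) and NPSR1-AS1, which were lower. NPSR1-AS1 was the only DEG (2.96% of all genes tested). It fell from 2.55 ± 0.47 to 1.08 ± 0.14 CPM in MM1R and from 1.34 ± 1.08 to 0.489 ± 0.431 CPM in MM1S (-1.33, FDR = 0.0254), close to the floor of 3 counts in some MM1S libraries. Its log2 fold change was -0.885 without MM1S untreated replicate 1 and -1.84 without MM1S Fer-1 + RSL3 replicate 1, and the call was lost in 5 of the 18 fits that left out 1 library, those without MM1R or MM1S Fer-1 + RSL3 replicate 2, MM1S Fer-1 + RSL3 replicate 3, MM1R untreated replicate 2 or MM1S untreated replicate 1 (FDR up to 0.107). Without the MM1R library labelled Fer-1 + RSL3 replicate 2, 12 had an averaged FDR under 0.05 (16.7% of all genes tested), 11 of them among the 15. NPSR1-AS1 (0.0536), THUMPD3-AS1 (0.069), NDUFB2-AS1 (0.0825) and MNX1-AS1 (0.0517) no longer passed. The averaged log2 fold changes of UBA6-AS1 (0.97), THAP9-AS1 (0.92), AFAP1-AS1 (-0.83) and MCM3AP-AS1 (-0.71) passed without it.

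Untreated MM1R and MM1S cells were compared for the level of these RNAs. The MM1R libraries are of passages 4, 6 and 7 and the MM1S libraries of passages 16, 22 and 23, so line and passage number cannot be told apart. ELFN1-AS1, RHOXF1-AS1, TRG-AS1 and others were higher in MM1R, by 2-fold or more for 6 of them. Of the 161, 9 had an FDR under 0.05 (10.5% of all genes tested), all of them higher in MM1R (5.5%), and 6 of these were DEGs (4.64%). The members were chosen by their median over these same libraries, so the treated libraries, which the rule did not use, are given beside them. The treated libraries come from the same passages of the same lines, so they are not free of that choice. ELFN1-AS1, opposite the gene of a synaptic adhesion protein that was itself at 0.272 CPM or less in untreated cells, read 4.37, 8.22 and 7.94 CPM in untreated MM1R and 2.44, 2.66 and 2.56 CPM in untreated MM1S (log2 fold change 1.42, FDR = 0.00787), and 6.62 ± 1.57 against 3.16 ± 0.73 CPM with RSL3. RHOXF1-AS1, of an X-linked homeobox locus, read 3.90, 4.25 and 3.01 CPM and 1.92, 0.73 and 0.95 CPM (1.63, FDR = 0.0108), and 3.43 ± 0.46 against 0.945 ± 0.246 CPM with RSL3. TRG-AS1, of the T cell receptor gamma locus, read 52.8, 48.3 and 48.2 CPM and 31.1, 19.43 and 23.6 CPM (1.01, FDR = 0.00452), and 43.2 ± 5.36 against 20.2 ± 5.56 CPM with RSL3. CIRBP-AS1, opposite the gene of a cold-inducible RNA-binding protein, was at 3.71 ± 0.82 and 1.75 ± 0.03 CPM (1.08, FDR = 0.0108), TMEM9B-AS1 at 1.77 ± 0.45 and 0.787 ± 0.238 CPM (1.17, FDR = 0.0354) and ZSCAN16-AS1 at 7.80 ± 0.37 and 3.804 ± 0.954 CPM (1.03, FDR = 0.0199). Their untreated libraries did not overlap. RHOXF1-AS1 and TMEM9B-AS1 had medians of 19 and 17 counts in untreated MM1S, under the limit, and are thus members through MM1R, where they were higher. SH3RF3-AS1 (0.87), ARRDC1-AS1 (0.53) and SVIL-AS1 (0.50) passed the FDR but not the fold limit. In the treated libraries the mean was also higher in MM1R for all 9, with RSL3 and with Fer-1 and RSL3. The calls of ELFN1-AS1, TRG-AS1 and CIRBP-AS1 held with any 1 library left out, that of RHOXF1-AS1 was lost without MM1S untreated replicate 2 or 3, and that of SH3RF3-AS1 in 9 of 18 fits.

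**Figure D5:**
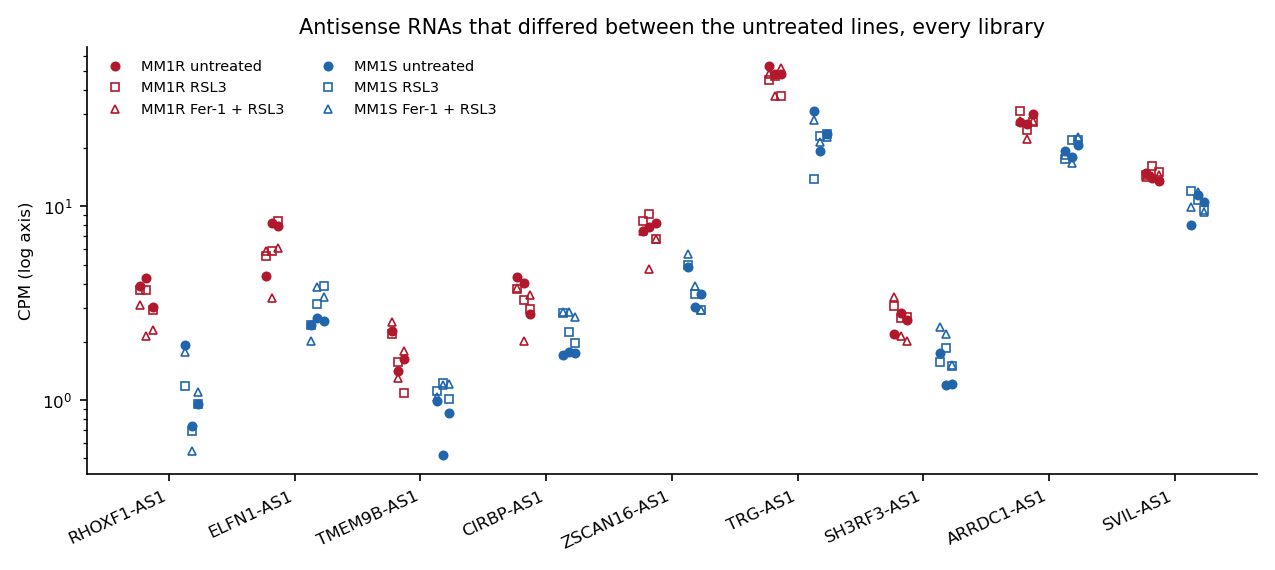
CPM (log axis) in every library of the 9 antisense RNAs with an FDR under 0.05 between the untreated lines, MM1R in red to the left and MM1S in blue to the right of each name, with filled circles for untreated, open squares for RSL3 and open triangles for Fer-1 + RSL3. The MM1R points lie above the MM1S points for TRG-AS1 (37.1 CPM or more in every MM1R library), and for CIRBP-AS1 the triangle of the MM1R library labelled Fer-1 + RSL3 replicate 2 lies among the MM1S points, at 2.03 CPM.

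More antisense RNAs leaned to MM1R than to MM1S, in a comparison where line and passage number again cannot be told apart. The fold change was above 0 for 109 of 161 (67.7%, against 48.8% of all genes tested), with a median of 0.121 against -0.0111, and 36 were higher and 10 lower without overlap of the untreated libraries (22.4% and 6.21% of them, against backgrounds of 15.6% and 16.7%). The size of this lean rested in part on MM1R untreated replicate 1 (passage 4). Without it, 92 of 161 (57.1%, against 47.7% of all genes tested) were higher in MM1R, with a median of 0.0684 against -0.0232. RLE and upper-quartile scaling gave 109 and 113 (67.7% and 70.2%, against 49.7% and 52.5% of all genes tested). The untreated libraries chose the members, of which 13 had a median under the count limit in untreated MM1S and 8 in untreated MM1R. The rule did not use the RSL3 libraries, but they come from the same passages and are not free of that choice. In them 103 of 161 were higher in MM1R (64.0%, against 46.0% of all genes tested), with a median of 0.150 against -0.0299. At an FDR under 0.05, 9 were higher and 4 lower (9.17% of all genes tested in either direction). In the Fer-1 + RSL3 libraries 108 were higher (67.1% against 48.4%), and 113 without the MM1R library labelled Fer-1 + RSL3 replicate 2 (70.2% against 47.6%). The sense genes did not lean the same way, with a median of -0.0613 over 145. Among antisense RNAs higher in MM1S, PAXIP1-AS2 (-1.02, FDR = 0.0531), FBXL19-AS1 (-0.91, FDR = 0.0681), CCNT2-AS1 (-0.85, FDR = 0.0645) and TSPOAP1-AS1 (-0.69, FDR = 0.184) had the largest differences and did not pass, and neither did ACTR3-AS1 (1.42, FDR = 0.081), higher in MM1R. TSPOAP1 (-2.97, FDR = 0.00906), CBR3 (-1.89, FDR = 0.000415), USP2 (2.09, FDR = 0.00367) and SNAI3 (1.05, FDR = 0.00694) were the sense genes that were DEGs between the lines. Antisense and sense differences between the lines had r = 0.397 across 146 pairs, again across genes of the same libraries. The interaction of line and RSL3 gave 0 antisense RNAs with an FDR under 0.05 by edgeR's quasi-likelihood test, as for all genes tested (0.0%), and 1, CBR3-AS1, with an unadjusted p under 0.05 (1.55% of all genes tested).

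Genes that act on antisense transcripts were read beside them for RSL3 against untreated, averaged over lines. In the nuclear exosome and its adaptors, which degrade unstable antisense RNA, 1 of 21 tested genes rose and 4 fell at an FDR under 0.05 (8.7% and 6.81% of all genes tested), with a median log2 fold change of -0.136 (all genes tested -0.000133). ZCCHC8 (0.50), a scaffold of the NEXT adaptor, rose, and the exosome subunits EXOSC4 (-0.56), EXOSC9 (-0.36) and EXOSC10 (-0.33) and SRRT (-0.42), which links the cap-binding complex to decay, fell. In 3′ end processing and termination, 0 of 18 rose and 3 fell, a share near that of all genes tested (15.5% in either direction), with a median of -0.187. These were CLP1 (-0.53), CSTF1 (-0.44) and CSTF3 (-0.32), all of the cleavage machinery. Among genes that recognise or edit double-stranded RNA, which sense and antisense transcripts can form, 1 of 19 rose and 2 fell (MAVS, -0.65, the adaptor of RNA sensors, and DROSHA, -0.27, the nuclear microRNA processor), with a median of -0.0256. None of the genes of these 3 lists was a DEG.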

How the data were processed

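RNA from 18 cultures was extracted with an RNeasy kit and sequenced by the authors in pairs of 50 base reads on a BGISEQ-500. Per the labels, reads were checked with FastQC 0.11.5 and aligned to hg19 with STAR 2.7.3a, and DESeq2 was used downstream. The counting tool, the annotation and the use of strand are not given in the sources used here. The authors deposited raw counts for 43735 genes, which were used. A second deposited table, of normalized signal values, was not used.

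Genes with low counts were removed with filterByExpr (minimum count 10), 15877 genes having 0 counts in all libraries and 14281 being tested. Counts were scaled with TMM and fitted in 1 model of 6 group means with edgeR 4.0.16 (limma 3.58.1, R 4.3.3, 12 residual degrees of freedom), tested with the quasi-likelihood test, and adjusted over all tested genes by the Benjamini-Hochberg method. For DEGs, the FDR was below 0.05 and the log2 fold change above 1 in either direction. CPM are TMM-scaled counts relative to library size, given as mean ± SD over 3 libraries, and log2 CPM has a prior count of 2. The floor of 3 counts covers counting error only, as reads carry no molecular identifiers and are not independent. Replicate libraries differed by more than sampling noise (chi-square per degree of freedom 7.84 to 162), so none was a copy of another. The values of MM1S RSL3 replicate 1 with the other replicates of its group, 140 and 162, were the highest, and the next was 49.3. Positions came from GENCODE lifted to hg19, joined by symbol, and promoter windows from RefSeq. The steps were tested on simulated data. The comparison of Fer-1 + RSL3 with untreated cells was added after the data were seen, as were the scalings and treated libraries for the share higher in MM1R, the interaction of line and Fer-1, and the values without the MM1R library labelled Fer-1 + RSL3 replicate 2.

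The passage in the labels pairs libraries within a line. Same-passage libraries deviated together from the means of their groups, with a median r of 0.250 in MM1R (0.0338 to 0.516, 9 pairs) and 0.416 in MM1S (0.216 to 0.681). Blocking on the passage was an alternative, as were DESeq2 1.42.0, other scalings, filters, thresholds and samples.

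The members and lists were chosen with earlier results of these data known. Named are members that were called or had an FDR under 0.05 in any comparison, the 6 largest rises and falls with RSL3, the 6 with most CPM, the 4 with the largest line difference in each direction, the 4 furthest above and below their sense gene, 3 on each side of the count limit, 4 well-known members, and members whose sense gene was called. The names of antisense RNAs with 1 direction in all 6 passages and CDKN2B-AS1 were chosen after their values were seen. Values of some genes that these rules name are not reported here.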

Additional observations from a re-analysis of the deposited data

Results flagged for a closer look

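For 7 antisense RNAs, every passage of one line moved one way and every passage of the other line the opposite way. This was so for 3 antisense RNAs with RSL3 (1.86%, against 1.95% of all genes tested) and for 4 with Fer-1 and RSL3 against RSL3 (2.48%, against 1.55%), shares near those of all genes. The interaction with line, fitted for each gene with edgeR's quasi-likelihood test, had an FDR of 1 for all 7 and an FDR under 0.05 for 0 of all genes tested in both comparisons. With RSL3 against untreated, the fitted log2 fold change of DCST1-AS1 was -0.4709 in MM1R and 0.3721 in MM1S, that of MELTF-AS1 was -0.1978 and 0.4458, and that of TPT1-AS1 was -0.265 and 0.06075. With Fer-1 and RSL3 against RSL3, CCDC18-AS1 had 0.2311 in MM1R and -0.2129 in MM1S, GDNF-AS1 had 0.3927 and -0.3, FOXN3-AS1 had 0.1563 and -0.4406, and CBR3-AS1 had 0.6963 and -0.2538. Without the MM1R library labelled Fer-1 + RSL3 replicate 2 the MM1R values of these 4 were 0.3526 (CCDC18-AS1), 0.2277 (GDNF-AS1), 0.1885 (FOXN3-AS1) and 0.5958 (CBR3-AS1). CBR3-AS1 had the only unadjusted p under 0.05 among the 7 interactions (0.0162, and 0.0405 without that library).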

How the results depend on the processing

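Counts of DEGs among the antisense RNAs are small, so that most alternatives move them by 1 or 2. With RSL3 against untreated (0 in MM1R, 0 in MM1S, 1 averaged) the numbers were 3, 3 and 10 without the fold limit, 1, 1 and 4 for the 226 symbols with a median of 10 counts or more, and 0, 2 and 0 with the passage as a replicate block. They were 1 in MM1S with DESeq2, 2 in MM1S and 2 averaged without the filter on low counts, and 0 averaged with only the groups compared in the fit. With Fer-1 and RSL3 against RSL3 (0, 0 and 0), there was 1 in MM1R and 1 averaged without the filter, 1 averaged with DESeq2 and 1 averaged with the block. With Fer-1 and RSL3 against untreated (0, 0 and 1), there were 4, 3 and 15 without the fold limit, 1, 1 and 2 at 10 counts or more, 1, 1 and 2 with the block, 1 and 1 by line without the filter or with only the groups compared, 1 in MM1S and 0 averaged with a minimum count of 50, and 0 averaged for members with 50 counts or more. Between the untreated lines (6) there were 3 with 50 counts or more. In 11 antisense RNAs all passages moved one way with Fer-1 and RSL3 against RSL3, and this was 17 at 10 counts or more.

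Leaving out 1 library gave 0 to 1 DEGs for RSL3 in each line and 0 to 2 averaged (0 without MM1R untreated replicate 2, MM1S RSL3 replicate 1 or MM1S untreated replicate 1 or 3, and 2 without MM1S RSL3 replicate 2), 0 for Fer-1 and RSL3 against RSL3, 0 to 1 by line and 0 to 2 averaged for Fer-1 and RSL3 against untreated, and 2 (without MM1S untreated replicate 2 or 3) to 10 (without MM1S untreated replicate 1) between the lines. Leaving out 1 passage gave 26 to 35 antisense RNAs that moved one way with RSL3 and 15 to 20 with Fer-1, as fewer passages have to fall on the same side.

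Of 47 results for single antisense RNAs with an FDR under 0.05, all had the same direction under all alternatives, and 47 of 47 stayed on their side of the threshold with DESeq2, 46 with RLE scaling, 43 with upper-quartile scaling, 39 without the filter, 43 of 44 with a minimum count of 50, 38 of 38 with the block and 35 with only the groups compared. In the last, the FDR in MM1S was 0.164 for UBA6-AS1, 0.218 for THAP9-AS1 and 0.203 for MCM3AP-AS1. The cause of these changes was not tested. The precision is limited, with a median SE of the log2 fold change of 0.283 in MM1R and 0.275 in MM1S for RSL3, against 0.194 for all genes tested in each.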
